A study of Mus musculus with 12 samples.

Results

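The 10 genes described here encode proteins that coat the lipid droplet or break down the triglyceride stored in it: the perilipins Plin1, Plin2, Plin3, Plin4 and Plin5, the droplet fusion factor Cidec, the lipases Pnpla2, Lipe and Mgll, and the lipase co-activator Abhd5. They were chosen by name from the 16411 genes of the deposited table, and all 10 were among the 13191 genes that passed the filter on low counts. Bulk RNA was sequenced for 6 tumors and 6 samples of benign mammary tissue, all untreated females of the MMTV-Neu-NDL-YD5 line, which has an FVB background. In this line the MMTV promoter drives an activated HER2 (Neu) transgene in the mammary epithelium, and the mice that gave the benign samples carried the transgene too, heterozygous in both groups. The mice were watched for tumors as young adults, and the labels give no age at collection for a sample. The benign samples were taken where no tumor could be seen, from mice other than those that gave the tumors. Total counts ranged from 5240853 to 8588567 per sample.

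A lipid droplet is a store of triglyceride and cholesteryl ester enclosed by a phospholipid monolayer, and perilipins on its surface govern the access of lipases. Plin1 and Plin4 are known mainly from white adipocytes, Plin5 from tissues that burn fatty acids such as heart, skeletal muscle and brown fat, and Plin2 and Plin3 from most cell types. Lipolysis runs in steps: the triglyceride lipase ATGL (Pnpla2), activated by CGI-58 (Abhd5), is followed by the hormone-sensitive lipase HSL (Lipe) and by monoglyceride lipase (Mgll). The mammary gland is embedded in a fat pad, so adipocytes are a normal part of the benign tissue.

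Tumors were compared with benign tissue to ask how the transcripts of droplet coating and lipolysis differ between them. Of the 10 genes, 9 were lower and 1, Plin3, was higher in tumors at an adjusted p under 0.1 by edgeR's quasi-likelihood test, the threshold the study used for its transcripts. Over all genes tested, 34.8% were called lower and 28.2% were called higher, so either direction was common in this comparison. Every tumor lay below every benign sample for 8 of the 10 genes, against 21.2% of all genes tested, whereas for Plin3 all 6 tumors exceeded all benign samples, against 14.7% of all genes tested. The median log2 fold change, tumor minus benign, was -4.25 over the 10 genes and -0.06 over all genes tested. The size of the change ranged from a ratio of means (benign to tumor) of 366 for Plin1 to 1.56 for Abhd5. Values per sample are CPM, counts scaled to a common library size by the TMM method. In bulk tissue fewer cells of a type and less RNA per cell cannot be told apart.

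**Figure D1:**
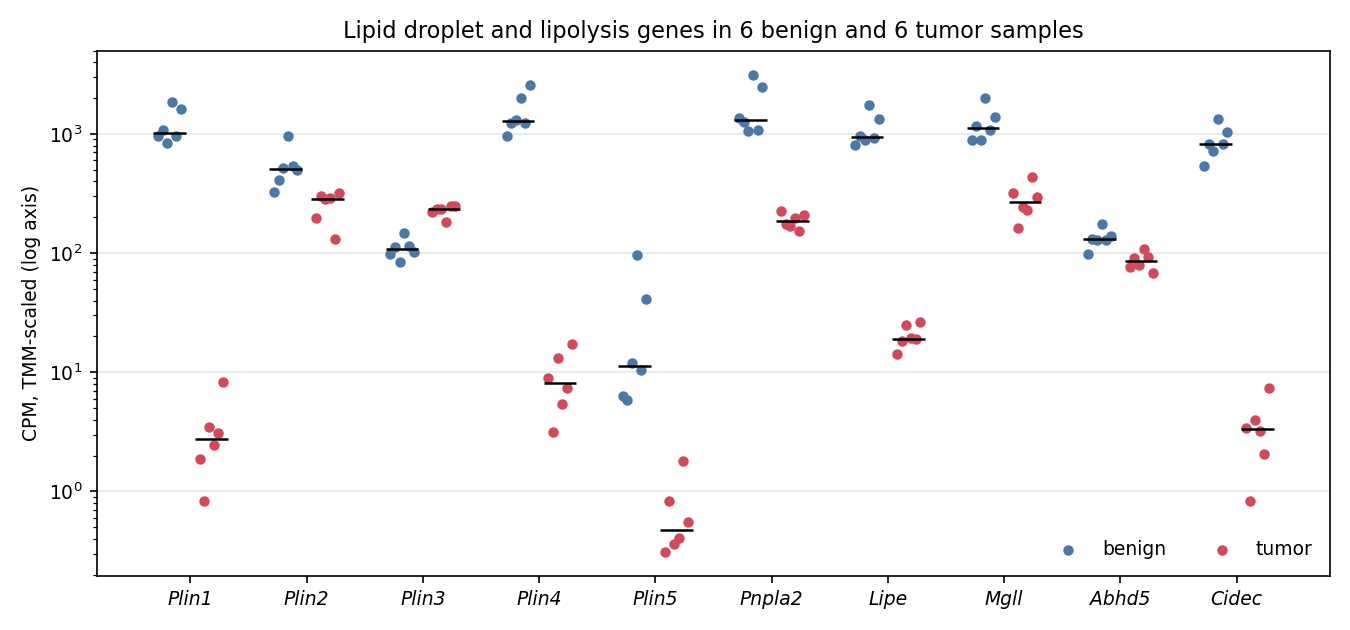
CPM on a log axis for the 10 genes in each of the 6 benign (blue) and 6 tumor (red) samples, with the median of each group as a black line. The groups are far apart for Plin1, Plin4, Cidec and Lipe, close for Plin2 and Abhd5, and Plin3 alone is higher in tumors.

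Plin1 guards the droplet of white adipocytes and releases the lipase co-activator when phosphorylated. In benign tissue it ranged from 848.2 to 1855 CPM (median 1017, n = 6), and in tumors from 0.825 to 8.34 CPM (median 2.75, n = 6). The highest tumor was therefore far below the lowest benign sample. The fitted log2 difference was -8.49 with a standard error of 0.54 (edgeR, adjusted p = 4.9e-08), with 6 to 76 counts behind each tumor value. Plin4, which coats small nascent droplets in adipocytes, ranged from 955.2 to 2561 CPM (median 1279) in benign tissue and from 3.16 to 17.2 CPM (median 8.15) in tumors. Its log2 fold change was -7.39 ± 0.48 (SE, adjusted p = 5.7e-08), and the groups did not overlap. The annotated ends of Plin4 and of Hdgfl2 on the opposite strand overlap, and whether the authors counted reads by strand is not given in the sources used here. Hdgfl2 itself averaged 56.4 CPM in the benign samples and 39.7 CPM in tumors.

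Cidec, which joins droplets at their contact sites and lets lipid pass into the larger of the pair, moved with these adipocyte perilipins. It ranged from 540.2 to 1332 CPM (median 822.4) in benign tissue and from 0.825 to 7.35 CPM (median 3.33) in tumors. The groups did not overlap, and the log2 fold change was -7.96 ± 0.48 (SE, adjusted p = 3.3e-08). Tumor sample 6 was the highest tumor for Plin1, Plin4, Cidec and Lipe, and also for Plin2 and Plin3. The same sample held the highest level of the adipocyte hormone Adipoq among tumors, at 6.92 CPM, and the highest sum of the 8 adipocyte markers, at 109.3 CPM against 14.9 to 52.2 CPM in the other tumors. The part of these markers in the Plin1 value of tumor sample 6 was not tested.

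Plin2 and Plin3, the perilipins of most cell types, went in opposite directions. Plin2, which binds droplets permanently and is degraded when it is free of lipid, ranged from 328.3 to 963.8 CPM (median 509.1) in benign tissue and from 132.2 to 319.6 CPM (median 287.1) in tumors. All tumors were below all benign samples, but the gap between the highest tumor and the lowest benign sample was small. The fitted log2 difference was -1.10 with a standard error of 0.27 (edgeR, adjusted p = 0.0041). Without benign samples 3, 4 and 6, which held most of the skeletal muscle transcripts, it was -0.71 (adjusted p = 0.058), under the threshold of 0.1 but over 0.05. Of these, sample 4 held the 963.8 CPM, while samples 3 and 6, at 519.0 and 499.3 CPM, were near the benign median. Without sample 4 alone the log2 difference was -0.85. Plin3, which sits free in the cytosol and moves onto new droplets, ranged from 84.7 to 146.6 CPM (median 107.7) in benign tissue and from 182.8 to 250.1 CPM (median 234.0) in tumors. Each tumor was above each benign sample, with a log2 fold change of 1.05 (standard error 0.14, adjusted p = 2.6e-05). Markers of luminal epithelium moved the same way as Plin3: 6 of 8 were higher and 1 was lower in tumors, against 28.2% and 34.8% of all genes tested. The sum of these markers was 939.4 to 2649 CPM in benign tissue and 3016 to 4496 CPM in tumors. Their part in the rise of Plin3 was not tested.

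The 250 bases before the RefSeq start of Plin1, Plin2 and Plin3 are shown because the 3 genes stand for the steep fall, the small fall and the rise among the perilipins. The sequences are those of RefSeq on GRCm38.p6, the build behind mm10, and each is printed 5′ to 3′ along the gene's strand. Plin1 is at chr7:79732777-79733026, Plin2 at chr4:86670060-86670309 and Plin3 at chr17:56290512-56290761, all on the minus strand. The GENCODE genes of Plin1 and Plin3 begin further upstream than these starts. The Plin3 window lies inside the gene, which extends to 56292873, and the Plin1 window overlaps the gene, which extends to 79732903. Distances below are counted from the RefSeq starts. Capitals mark AGGTCA, the half-site of many nuclear receptors, and the GC box GGGCGG, each in either direction.
Plin1: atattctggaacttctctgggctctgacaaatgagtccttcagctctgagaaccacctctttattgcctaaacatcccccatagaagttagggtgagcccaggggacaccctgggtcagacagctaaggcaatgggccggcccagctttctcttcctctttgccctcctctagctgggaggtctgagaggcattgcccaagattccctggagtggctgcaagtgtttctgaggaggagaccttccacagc
Plin2: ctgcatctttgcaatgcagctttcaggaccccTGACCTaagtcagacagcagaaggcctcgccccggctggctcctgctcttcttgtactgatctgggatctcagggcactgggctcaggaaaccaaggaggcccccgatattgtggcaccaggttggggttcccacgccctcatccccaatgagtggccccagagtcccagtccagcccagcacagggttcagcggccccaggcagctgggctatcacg
Plin3: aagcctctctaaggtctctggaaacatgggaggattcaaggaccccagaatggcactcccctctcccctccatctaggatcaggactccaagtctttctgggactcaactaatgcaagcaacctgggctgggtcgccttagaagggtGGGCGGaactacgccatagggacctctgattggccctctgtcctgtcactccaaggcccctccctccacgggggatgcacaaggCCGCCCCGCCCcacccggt
The Plin1 window held neither motif. The Plin2 window held 1 half-site, beginning 218 bases before the start, and 14% of all 32851 promoter windows of this length held at least 1. The Plin3 window held 3 GC boxes, beginning 103, 19 and 14 bases before the start, of which the last 2 share a base, and 32.7% of all windows held at least 1. None of the 3 windows held TATAAA (in 12.4% of all windows) or CACGTG (6.02%). The observed to expected ratio of CpG was 0.055 for Plin1, 0.256 for Plin2 and 0.318 for Plin3, against a median of 0.373 over all windows, and 8.3% of all windows had a lower ratio than Plin1. A match of letters is a description of the window, and no binding was measured.

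Plin5 brings droplets to mitochondria in cells that oxidize fatty acids, and it was the least abundant of the 10 genes in both groups, also per length of transcript. The 6 benign samples held 6.30, 5.85, 12, 96.2, 10.5 and 41.2 CPM, in the order of samples 1 to 6, so that samples 4 and 6 stood above the others. Tumors ranged from 0.311 to 1.79 CPM (median 0.477), which is 2 to 14 counts, and several were near the floor of 3 counts (0.411 CPM at the mean library size). The groups did not overlap, and the log2 fold change was -5.30 ± 0.85 (SE, adjusted p = 1.7e-04). It was -4.38 without benign sample 4 and -3.34 (adjusted p = 4.1e-04) without benign samples 3, 4 and 6. The fall thus held in the samples poor in muscle, with a smaller value.

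Markers of brown fat and skeletal muscle were uneven among the benign samples in part along with Plin5. Ucp1, the uncoupling protein of brown fat, was at 1434 CPM in benign sample 4 and 217.4 CPM in benign sample 6, and between 0 and 41.0 CPM in the other benign samples. The summed level of 11 skeletal muscle markers was 54140 CPM in benign sample 3, 36160 CPM in sample 4 and 92080 CPM in sample 6, and 19.6 to 375.0 CPM in the remaining benign samples. Benign sample 3, rich in muscle markers but with Ucp1 at 41.0 CPM, held 12 CPM of Plin5. Samples 1, 2 and 5, poor in muscle markers, held 6.30, 5.85 and 10.5 CPM. Pnpla2 followed the same order at the top, with 3153 CPM in sample 4 and 2484 CPM in sample 6, against 1067 to 1355 CPM in the others. The summed adipocyte markers had that order too, with 16420 CPM in sample 4 and 13360 CPM in sample 6, against 6375 to 10070 CPM in the others. Among benign samples, sample 4 was the highest for every one of the 10 genes except Plin4, which was highest in sample 6. The part of white adipocytes, brown fat or muscle in these differences was not tested.

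**Figure D2:**
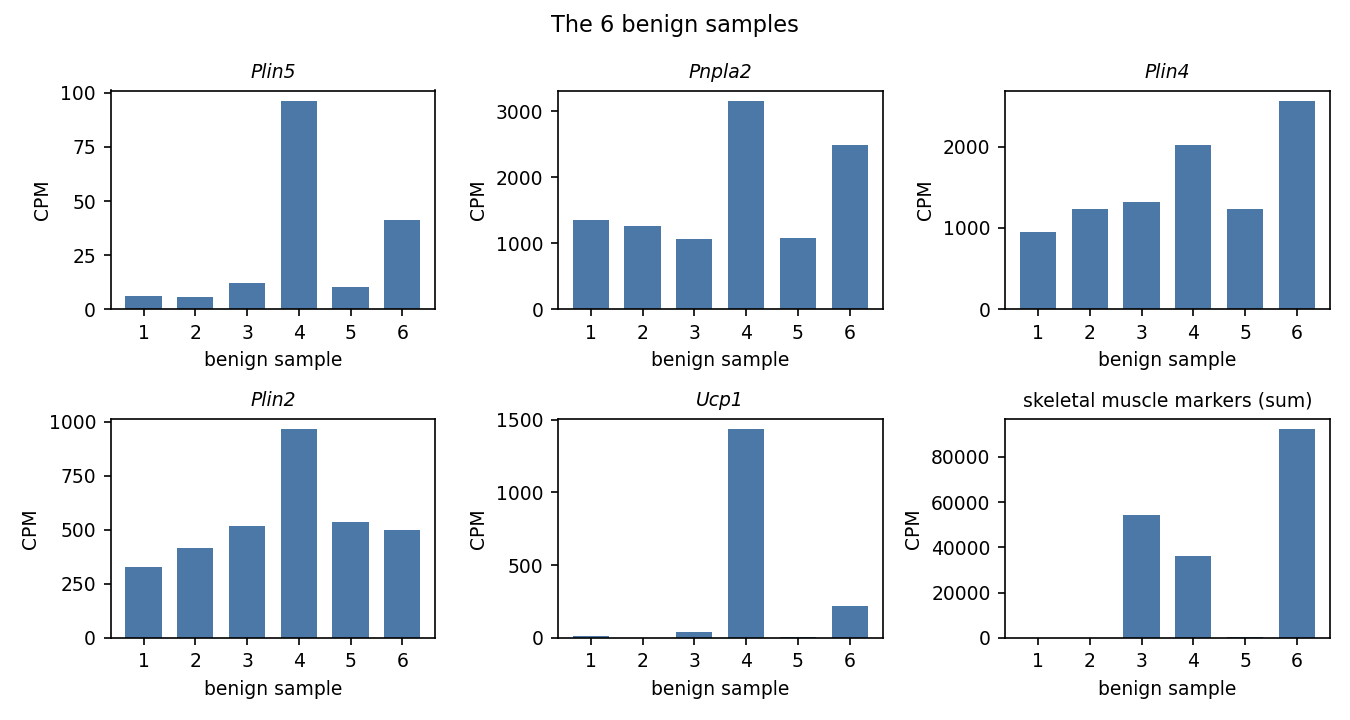
CPM of Plin5, Pnpla2, Plin4, Plin2 and Ucp1, and the summed CPM of 11 skeletal muscle markers, in benign samples 1 to 6, each panel with its own axis from 0. Samples 4 and 6 lead for Plin5, Pnpla2, Plin4 and Ucp1, while muscle markers are high in samples 3, 4 and 6.

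The 3 lipases were all lower in tumors. Pnpla2, which removes the first fatty acid from triglyceride, ranged from 1067 to 3153 CPM (median 1312) in benign tissue and from 154.3 to 225.2 CPM (median 186.2) in tumors. The groups did not overlap, and the fitted log2 difference was -3.20 with a standard error of 0.30 (edgeR, adjusted p = 1.5e-06). Lipe, which acts next on diglyceride, ranged from 813.9 to 1755 CPM (median 945.7) in benign tissue and from 14.3 to 26.3 CPM (median 19.2) in tumors. Its log2 fold change was -5.78 ± 0.26 (SE, adjusted p = 4.8e-09), without overlap of the groups. The study singled out Lipe on these samples, so its fall here is not independent evidence. Mgll, which frees the last fatty acid from glycerol, ranged from 886.9 to 1998 CPM (median 1126) in benign tissue and from 162.8 to 432.6 CPM (median 269.0) in tumors. Its log2 fold change was -2.14 ± 0.27 (SE, adjusted p = 1.9e-05), and all tumors were below all benign samples.

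Abhd5, the co-activator that Plin1 holds back in resting adipocytes, had the smallest change of the 10 genes. It ranged from 99.3 to 176.2 CPM (median 130.8) in benign tissue and from 67.6 to 108.4 CPM (median 85.2) in tumors. The groups overlapped by 1 sample each, since tumor sample 4 at 108.4 CPM was above benign sample 1 at 99.3 CPM. The log2 fold change was -0.64 ± 0.15 (SE, adjusted p = 0.0022), and it was -0.44 (adjusted p = 0.048) without benign samples 3, 4 and 6. The ratio of Pnpla2 to Abhd5 in CPM per kb of transcript was 9.88 to 21.6 (median 14) in benign tissue and 2.01 to 3.75 (median 2.44) in tumors. The ratios of the groups did not overlap.

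**Figure D3:**
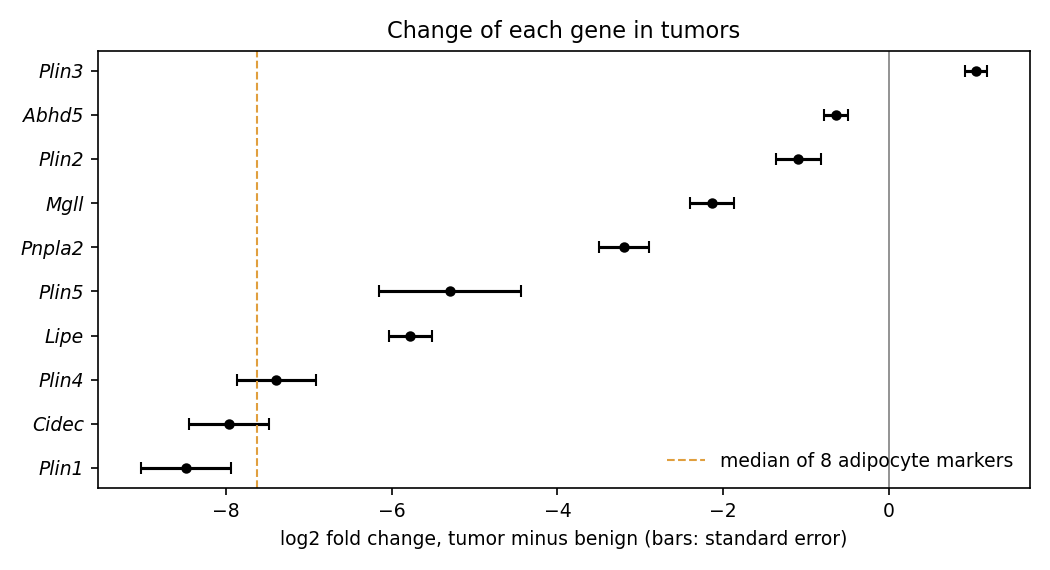
Log2 fold change, tumor minus benign, of each gene with its standard error, and the median of 8 adipocyte markers as a dashed line at -7.63. Plin1, Cidec and Plin4 lie next to the line, Abhd5 and Plin2 lie near 0, and Plin3 is at 1.05.

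To compare genes with each other, CPM was divided by the length of the longest protein-coding transcript in GENCODE M21. The order of the genes depends on this choice, and ranks by coding length were not computed. Mgll, for example, has 993 coding bases in a transcript of 3991, and Plin2 has 1275 in 1888. In benign tissue Pnpla2 had the highest mean, 660.5 CPM per kb (SD 332.7), followed by Cidec at 510.7 (SD 159.6), Plin1 at 433.3 (SD 147.4) and Mgll at 309.9 (SD 104.5). Lipe at 300.9 (SD 97.8), Plin2 at 288.1 (SD 116.5) and Plin4 at 269.9 (SD 105.7) came next, and neighbors in this order from Pnpla2 to Plin4 overlapped in their ranges. Abhd5 at 42.4, Plin3 at 30.2 and Plin5 at 14.4 CPM per kb were well below these. In tumors Plin2 was the highest at 134.8 CPM per kb (SD 38.9), with a range of 70.0 to 169.3 that overlapped those of Pnpla2 at 71.9 (SD 10.2) and Mgll at 70.4 (SD 23.2). Plin3 moved from rank 9 to rank 4, at 62.7 CPM per kb (SD 6.86), while Plin1 moved from rank 3 to rank 9 at 1.19 CPM per kb (SD 0.93). The summed level of the 5 perilipins was 710.7 to 1608 CPM per kb in benign tissue and 141.8 to 244.2 CPM per kb in tumors. By these transcript lengths, Pnpla2 held a similar share of the sum of the 3 lipases in both groups. It was 50.6% ± 5.43 in benign tissue and 49.5% ± 8.49 in tumors (SD, n = 6), with no test of that difference. Coding lengths, 1458 bases for Pnpla2, 3216 for Lipe and 993 for Mgll, would weight the 3 genes otherwise, and shares by them were not computed. The share of Lipe was 24.4% ± 2.59 in benign tissue and 3.81% ± 1.04 in tumors, and that of Mgll was 25.1% ± 3.18 and 46.7% ± 8.92.

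Although Plin2 itself was lower in tumors, its share of the perilipin transcripts was higher there, as Plin1 and Plin4 made up most of the benign sum and little of the tumor sum. Plin2 took 19.8% to 32.9% of the perilipin counts per kb in benign tissue (mean 27.9% ± 5.35, SD, n = 6) and 49.4% to 74.5% in tumors (mean 66.0% ± 9.02, n = 6). The difference of 38.1 percentage points had p = 0.00216 in a two-sided exact permutation test over 924 regroupings, the smallest p it can give, and it is not independent of the falls of Plin1 and Plin4 given above. Plin3 took 2.09% to 3.82% in benign tissue and 24.5% to 48.3% in tumors. Plin1 took 42.0% ± 4.25 of the benign perilipin counts per kb and 0.582% ± 0.374 in tumors, and Plin4 took 25.9% ± 4.09 and 0.799% ± 0.372. Tumor sample 5, with the lowest Plin2 of all samples at 132.2 CPM, was the tumor with the highest share of Plin3.

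**Figure D4:**
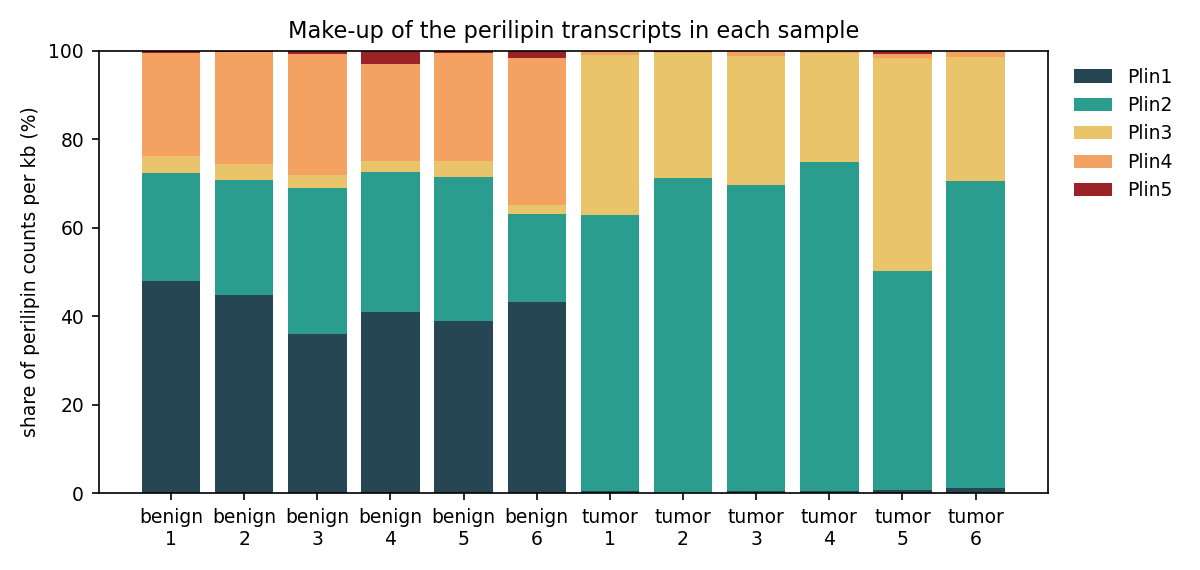
Stacked shares (%) of Plin1 to Plin5 in the perilipin counts per kb of transcript, one bar per sample. Plin1, Plin2 and Plin4 fill most of each benign bar, and Plin2 and Plin3 fill nearly all of each tumor bar.

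The fall of adipocyte transcripts as a whole was set beside that of each gene. All 8 adipocyte markers fell in tumors, led by the hormones Lep and Retn (-9.37 and -9.10), with a median log2 fold change of -7.63, and their sum was 6375 to 16420 CPM in benign tissue and 14.9 to 109.3 CPM in tumors. Adipoq was at 795.7 to 1409 CPM in benign tissue and 0.895 to 6.92 CPM in tumors, low but above 0 in every tumor. The mean log2 CPM of the 8 markers was 8.72 in benign tissue and 1.30 in tumors, a difference of -7.42. Relative to this mean, Plin4 differed between tumors and benign tissue by -0.045 on the log2 scale, Cidec by -0.62 and Plin1 by -1.19. These 3 thus fell by about as much as the mean of the markers or by more. Single markers differed, with fitted log2 fold changes from -3.61 for Adig to -9.37 for Lep. That of Adipoq, -8.59, was a larger fall than that of Plin1, -8.49. Relative to the mean of the markers, the differences were 1.69 for Lipe, 3.19 for Plin5, 4.35 for Pnpla2, 5.28 for Mgll and 6.78 for Abhd5, given as a description without a test. Plin2 was higher relative to the markers in tumors by 6.35 and Plin3 by 8.49 (p = 0.00216 for each in two-sided exact permutation tests, the smallest possible), in 6 of 6 tumors. With Adipoq alone as the marker the differences were 7.66 and 9.80. The markers were chosen with earlier results of these data known. Their fall and the small changes of Plin2 and Plin3 fixed the outcome of both tests, which add nothing to the values given above.

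**Figure D5:**
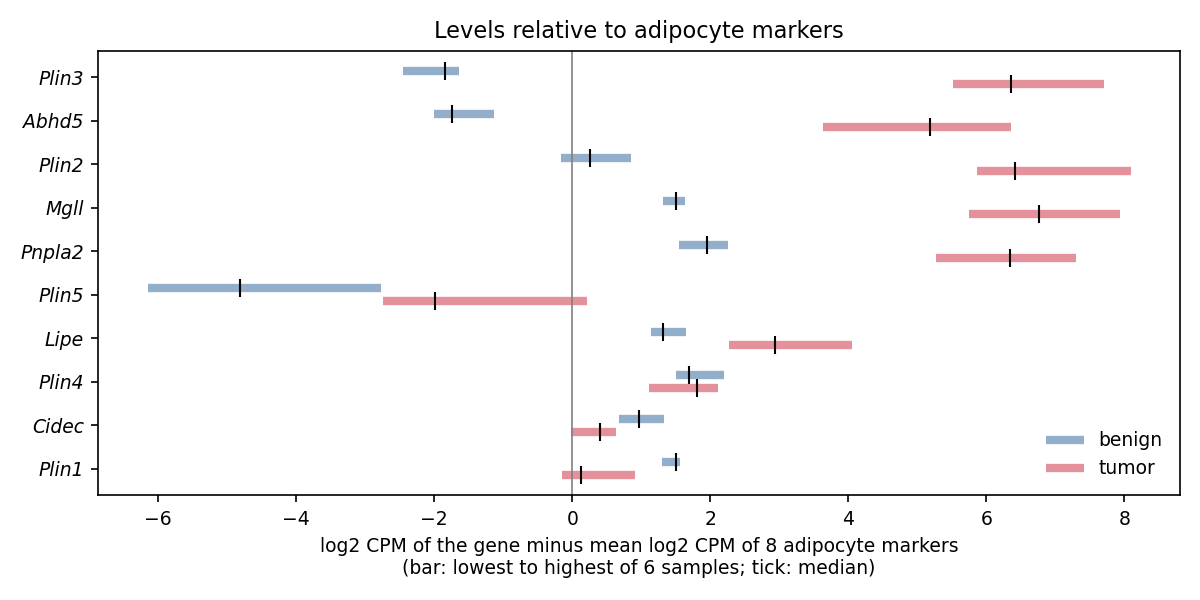
For each gene, log2 CPM minus the mean log2 CPM of 8 adipocyte markers, as the range (bar) and median (tick) of the 6 benign (blue) and 6 tumor (red) samples. The ranges of the groups overlap for Plin4, lie close for Cidec, Plin1 and Plin5, and are furthest apart for Plin3.

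Markers of the other cell types in the tissue moved as well, in a comparison where 34.8% of all genes tested were called lower and 28.2% higher. All 6 markers of myoepithelium, of endothelium and of fibroblasts were lower in tumors, with the largest falls in Myh11 and Krt14, Tek and Cdh5, and Dpt and Dcn, respectively. Of 8 macrophage markers 4 were lower (Mrc1 and Lyz2 by most) and 1, Trem2, was higher. Among the lower ones Csf1r was barely under the threshold (adjusted p = 0.0997, edgeR). It was not called in most fits without 1 sample, for example without benign sample 1 (adjusted p = 0.27). Epcam, an adhesion protein of epithelium, rose from a mean of 255.3 to 1206 CPM and Cldn3 from 100.9 to 412.6 CPM, while Krt19 fell from 355.9 to 13.3 CPM. Of 6 lactation genes Lalba and Csn3 were higher, Csn2 was lower and 3 were not called. Of 6 brown fat markers tested 5 were lower, led by Ucp1 and Otop1, and all 6 skeletal muscle markers tested were lower, led by Tnnt3 and Ckm. Without benign samples 3, 4 and 6, 3 of the 6 brown fat markers and 1 of the 6 muscle markers were lower, and Ucp1 (adjusted p = 0.39), Tnnt3 and Ckm (adjusted p = 0.33 for both) were not called. The part of these cell types in the changes of the 10 genes was not tested.

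Among 19 other droplet genes, 16 were tested, of which 9 were lower, 5 were higher and 2 were not called, with a median log2 fold change of -0.43. The shares over all genes tested were 34.8% lower and 28.2% higher. Among the lower genes Spast (-0.29, adjusted p = 0.070) was not called in most fits without 1 sample. Without benign samples 3, 4 and 6 it was at -0.02 (adjusted p = 0.89). Cidea, a relative of Cidec that is abundant in brown fat, averaged 225.8 CPM in benign tissue (range 14.2 to 873.1) and 3.54 CPM in tumors, and its log2 fold change was -5.98 (adjusted p = 8.2e-04). Benign sample 4 held the 873.1 CPM, and without it the change was -4.75 (adjusted p = 0.0012). It was -6.85 without tumor sample 5 and -3.41 without benign samples 3, 4 and 6. Pnpla3, a relative of ATGL on the droplet, fell from 176.1 to 2.98 CPM (-5.87 on the log2 scale, adjusted p = 3.0e-06, and -6.91 without tumor sample 5). G0s2, a protein inhibitor of ATGL, fell from 189.1 to 70.2 CPM (-1.43, adjusted p = 0.012), while Hilpda, another inhibitor of ATGL, rose from 6.79 to 8.72 CPM (0.36, adjusted p = 0.087). The call of G0s2 was lost without benign samples 3, 4 and 6 (-0.82, adjusted p = 0.18), and that of Hilpda also without benign sample 3, 5 or 6 alone (adjusted p = 0.11 to 0.17). The largest rises were those of Spg20 (spartin), from 47.5 to 92.6 CPM (0.96, adjusted p = 3.9e-06), and Lpcat1, which makes phosphatidylcholine, from 48.9 to 83.0 CPM (0.76, adjusted p = 0.024). Without benign samples 3, 4 and 6 Lpcat1 was not called (0.45, adjusted p = 0.17), and in that fit 7 of the 16 genes were lower and 2 were higher. Fitm1, which was not tested, was at 0 in every tumor and had a mean of 26.7 CPM in benign tissue (range 0 to 79.0), at least 65.1-fold lower in tumors against a floor of 3 counts per library. That limit rests on benign samples 3, 4 and 6, at 43.5, 37.2 and 79.0 CPM, since the other benign samples were at 0 to 0.375 CPM, and without sample 6 alone it was 39.6-fold.

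Of 17 other lipases and related hydrolases, 13 were tested, of which 6 were lower, 2 were higher and 5 were not called. Over all genes tested the shares were 34.8% lower and 28.2% higher. The carboxylesterases Ces1d and Ces1f fell most, from 615.7 to 0.962 CPM (a log2 change of -9.22, adjusted p = 7.5e-07) and from 71.3 to 0.0932 CPM (-9.17, adjusted p = 4.8e-08). These belong to a cluster of near-identical esterase genes, so reads may be split among them. Lpl, which releases fatty acids from lipoproteins at the vessel wall, fell from 4780 to 25.0 CPM (-7.58, adjusted p = 2.2e-09). Lipa, the acid lipase of the lysosome, was not called, with 113.1 CPM in benign samples and 93.8 CPM in tumors (-0.27, standard error 0.30, adjusted p = 0.46). Pnpla6 and Pnpla7, which act on lysophospholipids, were higher by 0.52 (adjusted p = 0.0038) and 0.46 (adjusted p = 0.047). Pnpla7 missed the threshold without benign samples 3, 4 and 6 (adjusted p = 0.105). Without tumor sample 6 the changes of Ces1d and Ces1f were -10.1 and -10.6, and without benign samples 3, 4 and 6 that of Ces1d was -8.49.

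Of 27 genes tested that carry hormone signals to the lipases, 15 were lower, 4 were higher and 8 were not called. Over all genes tested the shares were 34.8% lower and 28.2% higher. The median log2 fold change of the list was -1.59. It holds genes that restrain lipolysis, such as Pde3b, beside those that drive it, so the count gives no direction for the signal. Adrb3, the receptor of rodent adipocytes, ranged from 127.6 to 354.9 CPM in benign tissue and from 0 to 2.52 CPM in tumors (-8.54 on the log2 scale, adjusted p = 5.7e-07, and -10.5 without tumor sample 6), whereas Adrb1 ranged from 10 to 30.1 CPM in benign tissue and from 70.7 to 202.2 CPM in tumors (3.04, adjusted p = 3.1e-06). The adenylyl cyclase Adcy9 rose from 8.71 to 38.3 CPM (2.14, adjusted p = 3.6e-05, and 2.84 without benign samples 3, 4 and 6), and the inhibitory G protein subunit Gnai1 fell from 144.7 to 0.995 CPM (-7.12, adjusted p = 1.7e-08). Pde3b, through which insulin restrains lipolysis, fell from 154.7 to 6.27 CPM (-4.63, adjusted p = 1.6e-07), and Aqp7, the channel that lets glycerol out of adipocytes, from 95.5 to 0.75 CPM (-6.93, adjusted p = 9.8e-09).

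Plin4, Plin5 and Plin3 lie on the same strand of chromosome 17 (GRCm38), Plin4 at 56100591 to 56109803, Plin5 at 56111601 to 56117596 and Plin3 at 56277476 to 56292873. Of the 7 genes tested between Plin5 and Plin3, 5 were lower and 2 were higher in tumors, against 34.8% and 28.2% of all genes tested. The log2 fold changes of the lower genes were -3.38 for Sema6b, -1.54 for Tnfaip8l1, -1.46 for Fem1a, -1.34 for Lrg1 and -0.48 for Dpp9, and those of the higher genes were 0.81 for Ticam1, next to Plin3, and 0.57 for Mydgf. Without benign samples 3, 4 and 6, Fem1a was at -0.053 (adjusted p = 0.79) and Lrg1 at -0.78 (adjusted p = 0.23).

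The genes whose centered log2 CPM over the 12 samples lay closest to Plin1, Plin2, Plin3 and Plin5 were sought among 10811 genes with a mean of at least 10 CPM, by the root mean square difference. For Plin1 they were Tmem45b (0.313), Sncg (0.342) and Fabp4 (0.375), the last of which is 1 of the 8 adipocyte markers. For Plin2 they were Pgd (0.169), Ogfod3 (0.249) and Dbi (0.285), and for Plin3 Decr2 (0.163), Nck1 (0.167) and Hdac8 (0.17). The closest genes to Plin5 were further away, with Phospho1 at 0.539, Gadd45g at 0.626 and Gpx3 at 0.644.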

How the data were processed

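Poly A RNA of 6 tumors and 6 benign mammary tissue samples was sequenced as paired reads, and samples were grouped by their titles. Reads were quantified with Salmon by the authors, whose deposited table gives 1 estimated count per gene and sample, written as whole numbers and not scaled for library size. Their processing notes also name Trim Galore and the build mm10. The annotation, the strand setting and the tool versions are not given in the sources used here.

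From the deposited estimated counts, edgeR 4.0.16 (R 4.3.3) kept genes by filterByExpr with a minimum count of 10 and a minimum total of 15, scaled libraries by TMM and ran the quasi-likelihood test (two-sided), adjusted by Benjamini-Hochberg over 13191 genes and read at 0.1. Log2 CPM used 2 added counts. Levels relative to adipocyte markers and the Plin2 share were compared by exact permutation. The study ran DESeq2, and DESeq2 1.42.0 was run as an alternative, as were other scalings and filters, a stricter threshold (0.05), a block on the replicate numbers, fits without some samples, and for the shares and relative levels other lengths, markers and added counts. Replicates differed by more than sampling noise (smallest chi-square per degree of freedom 12.5). The edgeR p-values weigh the difference of the groups against the spread between samples of a group. The sample titles do not say whether each tumor came from a different mouse. Counting floors cover counting error only.

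The 10 genes, the lists and the samples left out together were chosen with earlier results of these data known. From each list the 2 largest rises and 2 largest falls among called genes are named, with some named whatever they did (G0s2, Hilpda, Cidea, Pnpla3, Lipa, Lpl, Adrb3, Pde3b, Aqp7, and Adipoq, Ucp1, Ckm and Epcam as checks of the tissue). Adig, Csf1r and Spast, and Hdgfl2 and the other neighbors on chromosome 17, were named after their values were seen. Gene positions and lengths are from GENCODE M21 (GRCm38).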

Additional observations from a re-analysis of the deposited data

Results flagged for a closer look

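In 20 sets of 6 values (10 genes in each group), 3 held a sample that stood apart from the rest of its group, where chance gives about 5% of such sets. Plin1 in tumor sample 6 was at 8.34 CPM, and the next tumor was at 3.49 CPM. Plin2 in benign sample 4 was at 963.8 CPM, and the next benign sample was at 537.8 CPM. Plin5 in tumor sample 5 was at 1.79 CPM, and the next tumor was at 0.825 CPM. In tumor sample 5 the summed skeletal muscle markers were at 154.3 CPM, against 1.81 to 9.72 CPM in the other tumors, Ucp1 was at 6.91 CPM, against 0 in the other tumors, and the summed brown fat markers were at 36.6 CPM, against 12.3 to 30.7 CPM. The part of these markers in the Plin5 value was not tested.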

How the results depend on the processing

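Each of the 197 checks of a single gene kept the direction and the call at 0.1. For each gene these include the main fit read again at 0.05, which is not a refit. Plin1, Plin5 and Cidec were not tested under the filter that asks for 10 counts in each sample, where 6 genes were called lower in place of 9. Apart from Plin5 without benign sample 4 (log2 fold change -4.38) or without benign samples 3, 4 and 6 (-3.34), no alternative moved the fold of 1 of the 10 genes between groups by over 1.5 times. Leaving out samples for the genes of the other lists was added after seeing the data. Leaving out 1 sample at a time gave -1.15 to -0.85 for Plin2, 0.99 to 1.18 for Plin3 and -0.66 to -0.52 for Abhd5. Samples with the same number did not deviate together (correlations of -0.124 to 0.103), and with the replicate block 9 genes were again lower and 1 higher, with -1.07 for Plin2 and -4.72 for Plin5. The rise of the Plin2 share, 38.1 percentage points, was 26.5 with coding lengths and 34.5 without lengths. Relative to Adipoq alone, Plin2 differed by 7.66 and Plin3 by 9.80. Depth limits the tumor values of Plin5 (2 to 14 counts).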
